A study of Mus musculus with 4 samples.

Results

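Bpifa2, Pglyrp1 and Wfdc2 encode secreted proteins of innate defence, and they are 3 of the 32285 genes listed in a single-cell RNA matrix of mouse salivary glands. They were chosen by name, on measured levels in these same cells, so what follows describes those levels and tests nothing about them. The submandibular and sublingual glands came from WT female C57BL/6N mice, 6 to 8 weeks old, in a physiological status with no treatment, and both glands were dissociated with enzymes. The labels list 4 samples and name 2 mice, while the methods of the study name 3. All barcodes share 1 suffix, so no cell could be tied to a gland, a mouse or a sample, and the matrix was read as 1 sample without replicates. The series asks which cells of the glands make the secreted proteins that meet oral bacteria.

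Saliva carries proteins that act on bacteria, made by acinar cells, which secrete most of the fluid, and by the ducts that lead it to the mouth. Bpifa2, also called parotid secretory protein, has a BPI fold and binds bacterial lipopolysaccharide. Pglyrp1 binds the peptidoglycan of bacterial walls and is best known from neutrophil granules, and Wfdc2 is a small protein with WAP domains made by many lining epithelia.

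The matrix held 15707 cells and 125100595 UMIs. A UMI is a tag that lets each captured RNA molecule be counted once, here at its 3′ end. Cells had between 1374 and 141509 UMIs, with a median of 2608 UMIs and 689 genes. A level is the UMIs of a gene in a group of cells per 10000 UMIs of that group, followed in brackets by an exact 95% interval that covers counting error only. Clusters made without the 3 genes gave 14 groups that marker genes could name, with 8804 cells or 56.1% of all. The other 6903 cells, or 43.9%, stayed in 9 unnamed groups, most of them in shallow clusters with under 500 genes in the median cell. Lymphoid-like cells, which are the NK and ILC1-like and T cell-like groups together, served as the reference for RNA that floats free and enters every droplet.

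Bpifa2 (ENSMUSG00000042459) lies at chr2:154008265-154016079 on the plus strand of GRCm38, with 9 exons and a principal transcript of 978 bases. Pglyrp1 (ENSMUSG00000030413) lies at chr7:18871331-18890459 on the plus strand, with 3 exons and 694 bases in its principal transcript. Wfdc2 (ENSMUSG00000017723) lies at chr2:164562413-164568510 on the plus strand, with 5 exons and 849 bases. No other annotated gene overlaps any of the 3. The last 500 bases of each share no run of 90 bases with a transcript of another gene, so no confusion with another gene is expected from the counted ends. Bpifa2 has genes of its own family on both sides, Bpifa6 and Bpifa3, and each of these had 0 UMIs.

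Bpifa2 was led by acinar groups. It was highest in Dcpp-rich acinar-like cells, at a level of 246 (246 to 247), which is 582 UMIs per cell. These 530 cells, named by Dcpp1, Dcpp2 and Dcpp3 (demilune cell and parotid proteins), Cldn10 and Gjb1, are 3.37% of all cells and held 64.3% of the 479980 Bpifa2 UMIs. They met 5 of the 7 markers on their list, and not Aqp5 or Bhlha15, which serous acinar-like cells met. Mucous acinar-like cells came next at 126 (124 to 127), a log2 ratio of 0.97 (0.95 to 0.99) between both groups. Few cells carried this second place: 13 of the 251 mucous acinar-like cells held 70.3% of the group's Bpifa2 UMIs, and the 113 cells with under 1% of UMIs on Dcpp genes had a level of 1.39. The interval of the ratio also leaves out the choice of cells: with clusters 6 and 12 undivided the log2 ratio for Bpifa2 was 1.68, with 30 principal components 1.64, with a filter on cells or the members kept in the clustering 1.66, and as a mean over cells 2.58, while with 10 components it was 0.67 and with the unnamed shallow Dcpp2-led cluster joined to the Dcpp-rich group 0.66. The runs with other components, a filter or the members kept named 11 to 13 groups in place of 14, so the division into groups also differed. Serous acinar-like cells, the most numerous named group with 2218 cells, were lowest of the 14 at 0.821 (0.799 to 0.844). On this scale the acinar groups held the top and the bottom of the order for Bpifa2. In UMIs per cell the bottom differs, since serous acinar-like cells are deep: they had 2.31 Bpifa2 UMIs per cell and ranked 6 of 14, against 0.855 in NK and ILC1-like and 0.752 in C1q-negative antigen-presenting-like cells, the lowest.

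Between those ends, the Bpifa2 level was 14.1 (13.3 to 14.9) in endothelial-like, 6.19 (5.84 to 6.54) in Slc13a2 duct-like, 5.68 (5.25 to 6.14) in basal duct-like and 5.49 (4.55 to 6.56) in T cell-like cells. Next came fibroblast-like cells at 4.31 (3.83 to 4.85), NK and ILC1-like cells at 4.06 (3.81 to 4.32), macrophage-like cells at 4.01 (3.75 to 4.29) and ionocyte-like duct cells at 3.39 (3.19 to 3.61). The lowest of this stretch were kallikrein-rich duct-like cells at 2.28 (2.14 to 2.42), C1q-negative antigen-presenting-like cells at 2.22 (1.83 to 2.68) and myoepithelial-like cells at 1.55 (1.17 to 2.02). Of the 13 pairs of neighbours in the order for Bpifa2, 5 did not differ beyond the interval of their ratio. These were the Slc13a2 and basal ducts, basal duct and T cells, fibroblasts and NK cells, NK cells and macrophages, and kallikrein-rich duct and C1q-negative cells (names shortened). A few cells carried much of the Bpifa2 in these groups: 15 of the 286 endothelial-like cells held 82.3% of that group's Bpifa2 UMIs, and 9 of 175 basal duct-like cells held 78.0%. In the 255 endothelial-like cells with at most 50 Dcpp UMIs there were 0.592 Bpifa2 UMIs per cell, against 4.30 over the whole group.

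**Figure D1:**
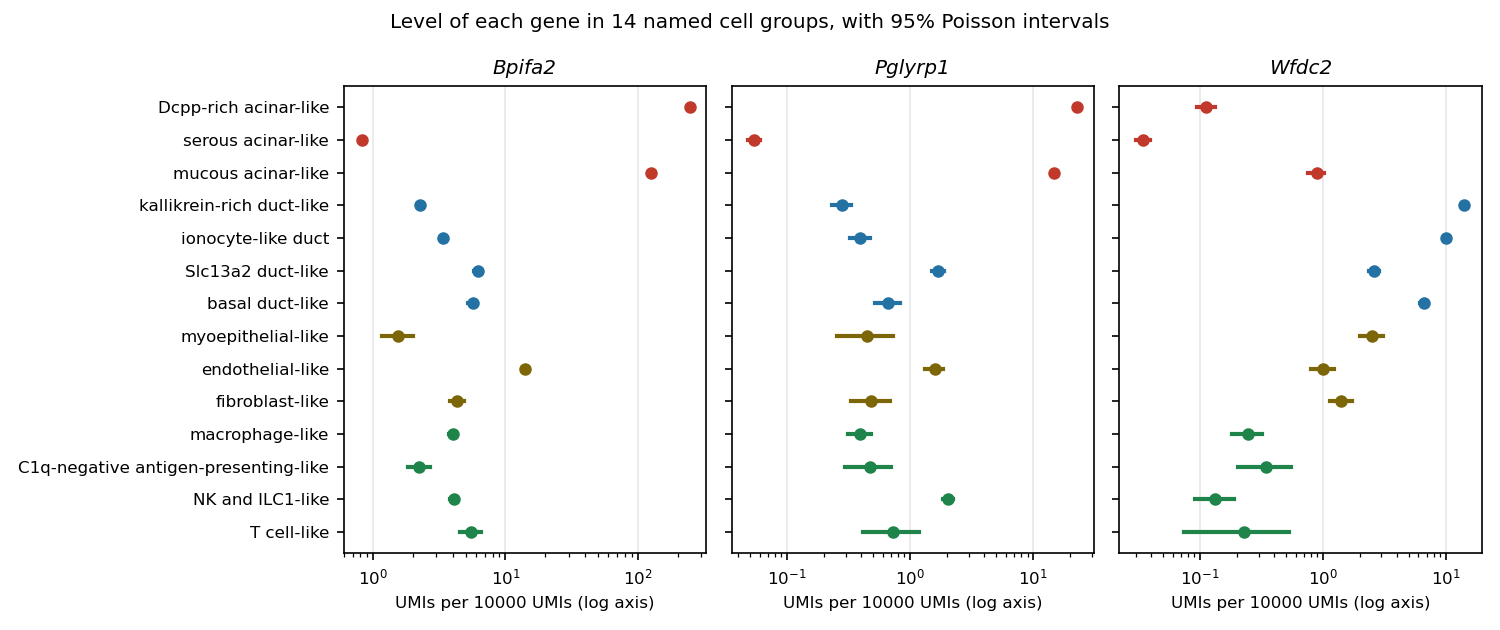
Level of each of the 3 genes in UMIs per 10000 on a log axis, with exact 95% intervals of counting error, in the 14 named groups of cells; acinar groups are red, duct groups blue, stromal and myoepithelial groups brown and immune groups green. Bpifa2 and Pglyrp1 peak in Dcpp-rich acinar-like cells at 246 and 22.7, and Wfdc2 in kallikrein-rich duct-like cells at 14.1.

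A Bpifa2 UMI was found in 99.1% of Dcpp-rich acinar-like cells, at a median depth of 24325.5 UMIs, against 40.5% of NK and ILC1-like cells, at a median of 1872. The serous acinar-like group, whose median depth was 25172 UMIs, had it in 69.3%. To compare at one depth, each cell was thinned, that is, 1000 of its UMIs were drawn at random. The share with a Bpifa2 UMI was then 97.0% in Dcpp-rich, 40.6% in mucous and 7.62% in serous acinar-like cells, and 25.5% in NK and ILC1-like cells. Thinning takes more of the free RNA from deep cells than from shallow ones, so the serous share, above the NK and ILC1-like share untouched and below it thinned, is not read against it.

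Free RNA from 1 source brings its transcripts in a fixed ratio, so Bpifa2 was also counted per 100 UMIs of Dcpp1, Dcpp2 and Dcpp3 summed. In Dcpp-rich acinar-like cells there were 3.02 Bpifa2 UMIs per 100 Dcpp UMIs. Over the 13 other named groups the ratio ran from 2.02 (1.79 to 2.27) in fibroblast-like cells to 4.43 (4.31 to 4.56) in serous acinar-like cells. The interval included 3.02 in 4 of the 13, namely mucous acinar-like (3.05), T cell-like (3.01), C1q-negative antigen-presenting-like (3.23) and myoepithelial-like cells (3.55). Higher Bpifa2 ratios were found in kallikrein-rich duct-like (3.26), macrophage-like (3.32), NK and ILC1-like (3.44) and basal duct-like cells (4.02), and lower ones in ionocyte-like duct (2.80), endothelial-like (2.39) and Slc13a2 duct-like cells (2.03). The Bpifa2 ratio thus varied between groups by more than counting error, over a range far narrower than that of its levels.

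Cells with at most 50 Dcpp UMIs, a limit chosen after seeing the data, leave out droplets that hold much Dcpp RNA. In 11 of 13 groups the ratio there was between 2.95 and 3.55 Bpifa2 UMIs per 100 Dcpp UMIs, and in 10 of the 11 its interval included 3.02. Kallikrein-rich duct-like cells, at 3.36 (3.11 to 3.63), were the exception among the 11. T cell-like cells were lower at 1.75 (1.15 to 2.55), on 27 Bpifa2 UMIs, and serous acinar-like cells higher at 7.03 (6.75 to 7.32). Most of the serous excess lay in 3 of 1324 cells, singled out after their values were seen, with 965, 227 and 176 Bpifa2 UMIs and only 31, 35 and 28 Dcpp UMIs. These 3 held 1368 of the 2610 Bpifa2 UMIs, had 0 Pglyrp1 UMIs each, and had 33.8%, 44.4% and 43.9% of their UMIs on Mucl2, a serous transcript. Among the other 1321 serous acinar-like cells the highest count of Bpifa2 was 6, and the ratio was 3.35 (3.17 to 3.55), which is still above 3.02 and near that of the kallikrein-rich duct-like cells.

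**Figure D2:**
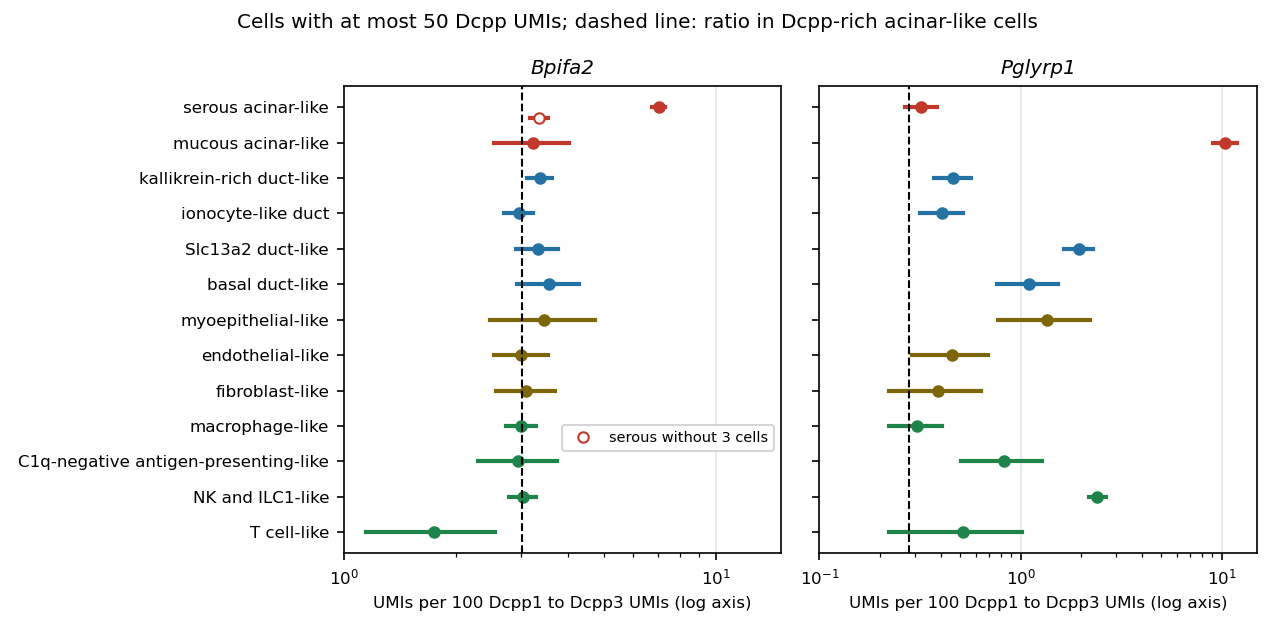
UMIs of Bpifa2 (left) and Pglyrp1 (right) per 100 UMIs of Dcpp1 to Dcpp3 on a log axis, in cells with at most 50 Dcpp UMIs of 13 named groups, with exact 95% intervals; the dashed line is the ratio in Dcpp-rich acinar-like cells and the open circle the serous group without 3 cells. Bpifa2 is near the line in most groups, while Pglyrp1 lies far to its right in mucous acinar-like, NK and ILC1-like and Slc13a2 duct-like cells.

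Single Dcpp-rich acinar-like cells differed much more in Bpifa2 than in Pglyrp1. The Bpifa2 level of single cells had a median of 206 and ran from 40.9 at the 10th percentile to 484 at the 90th, an 11.8-fold span. For Pglyrp1 the median was 20.6 and the same percentiles were 11.8 and 31.4, a 2.66-fold span. In 14 of the 530 cells, picked after the values were seen, at most 2 Bpifa2 UMIs were counted at a median depth of 6763.5 UMIs. The level of Bpifa2 over these 14 was 0.554, against 250.4 in the other 516, at a median depth of 24580. Their Pglyrp1 level was 20.9 against 22.7, and Dcpp3 stood at 4178 against 4183. These summed levels rest on few cells, since the 5 deepest of the 14 held 75.8% of their UMIs. Cell by cell, the Pglyrp1 level of the 14 ran from 1.84 to 38.5 with a median of 19.5, against a median of 20.6 in the 516, and Dcpp genes took a median of 63.7% of UMIs in the 14 and 80.5% in the 516. The mucous marker Muc19 was at 5.03 in the 14 and 0.379 in the 516, with 0 UMIs in the median cell of both sets. Its highest count was 31 UMIs among the 14 and 123 among the 516. A2ml1, another mucous marker, was at 14.6 against 9.43 and had at least 3 UMIs in each of the 14, and the serous transcript Mucl2 was at 240.4 against 147.

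**Figure D3:**
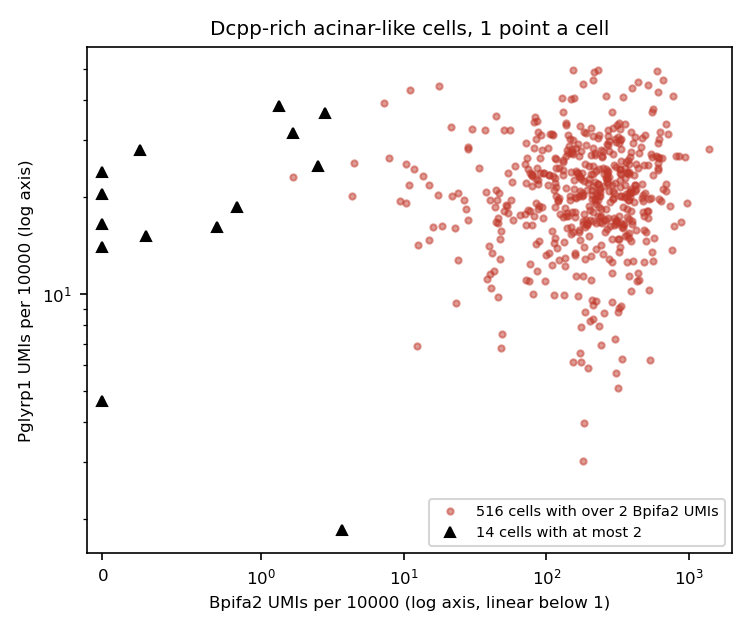
Each point is 1 of the 530 Dcpp-rich acinar-like cells, with its Pglyrp1 and Bpifa2 levels in UMIs per 10000; triangles are the 14 cells with at most 2 Bpifa2 UMIs. Bpifa2 spreads over an 11.8-fold range between the 10th and 90th percentiles and Pglyrp1 over a 2.66-fold range.

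Pglyrp1 was led by the same 2 acinar groups, and in some other groups its ratio to Dcpp UMIs was above that of Dcpp-rich cells. Its level was 22.7 (22.4 to 22.97) in Dcpp-rich acinar-like cells, or 53.6 UMIs per cell, and they held 63.5% of its 44776 UMIs. Mucous acinar-like cells followed at 14.8 (14.3 to 15.3), a log2 ratio of 0.62 (0.56 to 0.67), which for Pglyrp1 was 1.29 with clusters 6 and 12 undivided and 1.42 as a mean over cells, and 0.27 with 10 principal components or the shallow Dcpp2-led cluster joined. Serous acinar-like cells were again lowest of the 14, at 0.0539 (0.0483 to 0.0600) UMIs per 10000. In UMIs per cell they ranked 10 of 14 for Pglyrp1 at 0.152, and macrophage-like cells were lowest at 0.0933.

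Behind both acinar groups in the order of Pglyrp1 were NK and ILC1-like cells, at 2.02 (1.85 to 2.21), then Slc13a2 duct-like cells at 1.69 (1.52 to 1.89), endothelial-like cells at 1.58 (1.33 to 1.87) and T cell-like cells at 0.731 (0.418 to 1.19). Its level was 0.656 (0.515 to 0.825) in basal duct-like, 0.486 (0.333 to 0.686) in fibroblast-like, 0.469 (0.298 to 0.704) in C1q-negative antigen-presenting-like and 0.444 (0.254 to 0.721) in myoepithelial-like cells. It was 0.394 (0.325 to 0.473) in ionocyte-like duct, 0.389 (0.312 to 0.481) in macrophage-like and 0.281 (0.234 to 0.334) in kallikrein-rich duct-like cells. Neighbours of the order did not differ beyond the interval of their ratio in 7 of 13 pairs for Pglyrp1: the Slc13a2 duct with endothelial-like cells, and each of the 6 successive pairs from T cell-like cells down to macrophage-like cells. Neighbours in the order of Pglyrp1 were therefore not resolved from T cell-like to macrophage-like cells. The ends of this stretch did differ beyond counting error. Against macrophage-like cells, Pglyrp1 was 1.88-fold higher (1.03 to 3.23) in T cell-like and 1.69-fold higher (1.22 to 2.33) in basal duct-like cells. Few cells carried these values: 9 of 175 basal duct-like cells held 67.1% of that group's Pglyrp1 UMIs, and 1 cell held 31 of the 73. In macrophage-like cells, 47 of 922 held 90.7%. The T cell-like value rests on 16 UMIs in 14 cells, with 152 Dcpp UMIs per cell against 22.4 in the others. Macrophage-like cells with a Pglyrp1 UMI likewise had 180 Dcpp UMIs per cell, against 19.4 in the others. The intervals leave out how few cells hold these UMIs. As with Bpifa2, 15 of the 286 endothelial-like cells held 80.4% of that group's Pglyrp1 UMIs, and the level of Pglyrp1 in the 255 with at most 50 Dcpp UMIs was 0.321. Likewise, 26 of the 511 Slc13a2 duct-like cells held 53.5% of that group's Pglyrp1 UMIs. The Pglyrp1 level was 1.02 in the 419 of them with at most 50 Dcpp UMIs.

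A Pglyrp1 UMI was found in 100% of Dcpp-rich acinar-like cells (median depth 24325.5 UMIs), in 33.2% of NK and ILC1-like cells (median 1872) and in 5.97% of macrophage-like cells (median 2141.5). After thinning to 1000 UMIs these shares were 86.6%, 16.8% and 2.93%, and the share in Slc13a2 duct-like cells was 14.3%. The NK and ILC1-like share of Pglyrp1 was thus above that of another immune group at either depth.

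Counted per 100 Dcpp UMIs, Pglyrp1 was 0.278 in Dcpp-rich acinar-like cells, 0.322 in macrophage-like and 0.291 in serous acinar-like cells. In NK and ILC1-like cells it was 1.71 (1.56 to 1.88), which is 6.16 times the Dcpp-rich ratio. The Pglyrp1 ratio was also above 0.278 beyond its interval in myoepithelial-like cells at 1.01 (0.578 to 1.65), C1q-negative antigen-presenting-like cells at 0.682 (0.432 to 1.02), Slc13a2 duct-like cells at 0.556 (0.497 to 0.619), basal duct-like cells at 0.464 (0.364 to 0.584), kallikrein-rich duct-like cells at 0.403 (0.336 to 0.479) and mucous acinar-like cells at 0.359 (0.346 to 0.372). Intervals that included 0.278 were those of serous acinar-like, macrophage-like, T cell-like (0.402), ionocyte-like duct (0.325), endothelial-like (0.268) and fibroblast-like cells (0.227). Over whole groups, then, Pglyrp1 exceeded the amount that the Dcpp-rich ratio gives in 7 of 13 named groups, by most in NK and ILC1-like cells. The Dcpp-rich ratio is that of free RNA only if these cells are its 1 source, and a mix of sources was not tested.

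The limit of at most 50 Dcpp UMIs selects cells by the denominator of this ratio, so its values depend on the limit and stand beside those of whole groups. With it, the Pglyrp1 ratio was 2.41 (2.19 to 2.65) in 1082 NK and ILC1-like cells and 1.95 (1.64 to 2.31) in 419 Slc13a2 duct-like cells, the latter far above the 0.556 of all 511. It was 0.304 (0.223 to 0.406) in macrophage-like, 0.321 (0.265 to 0.384) in serous acinar-like, 0.390 (0.223 to 0.635) in fibroblast-like and 0.517 (0.223 to 1.02) in T cell-like cells, and each of these 4 intervals included 0.278. No excess of Pglyrp1 was detectable in these 4 groups at this depth, with or without the limit. Myoepithelial-like cells had 1.35 (0.771 to 2.21), basal duct-like cells 1.10 (0.765 to 1.53), C1q-negative antigen-presenting-like cells 0.831 (0.507 to 1.29) and kallikrein-rich duct-like cells 0.463 (0.373 to 0.569). Endothelial-like cells at 0.458 (0.290 to 0.688) and ionocyte-like duct cells at 0.407 (0.317 to 0.515) were above 0.278 only with the limit.

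Neutrophil markers were at or near 0 in the groups that led for Pglyrp1. All 7 neutrophil markers (S100a8, S100a9, Csf3r, Ly6g, Retnlg, Cxcr2 and Mmp9) had 0 UMIs in Dcpp-rich and in mucous acinar-like cells, and NK and ILC1-like cells had 1 UMI of them, from Csf3r. The NK and ILC1-like group joined a cluster of 1040 cells with a Pglyrp1 level of 2.08 and a cluster of 97 cells with 1.66, whose ratio had an interval that included no difference.

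Within mucous acinar-like cells, named by Muc19, A2ml1 and other mucous markers, Bpifa2 and Pglyrp1 came apart. Bpifa2 was carried by few of these cells: the median cell had 1 UMI and the highest 2327. The 251 cells were divided by the share of their UMIs on Dcpp genes, at limits chosen after seeing the data. In the 91 cells with at least 10% Dcpp, the level of Bpifa2 was 181 (179 to 184) and that of Pglyrp1 19.2 (18.4 to 19.9). In the 113 cells with under 1% Dcpp, Bpifa2 was at 1.39 (1.07 to 1.76), whereas Pglyrp1 was at 5.42 (4.78 to 6.12) and had a UMI in 56.6% of cells at a median depth of 4007. The 47 cells between had a Bpifa2 level of 4.84 and a Pglyrp1 level of 3.95. Muc19 was at 304 in the cells with under 1% Dcpp and 85.0 in those with at least 10%, and whether the latter are mixed droplets was not tested. In the 127 mucous acinar-like cells with at most 50 Dcpp UMIs there were 10.4 (9.11 to 11.9) Pglyrp1 UMIs per 100 Dcpp UMIs, against 0.359 over all 251, so this ratio rests on the choice of cells.

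Wfdc2 followed the ducts. It was highest in kallikrein-rich duct-like cells at a level of 14.1 (13.8 to 14.5), or 5.57 UMIs per cell, and these 1166 cells held 45.6% of its 14233 UMIs. Ionocyte-like duct cells, which carry markers of cells that pump protons, came next at 10.1 (9.75 to 10.5) with 20.6% of the UMIs, a log2 ratio of 0.48 (0.42 to 0.55). Basal duct-like cells had 6.65 (6.18 to 7.15) and Slc13a2 duct-like cells 2.61 (2.39 to 2.85). By level, all 4 duct groups thus stood at the head of the order for Wfdc2. In UMIs per cell the head differed. Myoepithelial-like cells, at 1.53 Wfdc2 UMIs per cell, ranked ahead of Slc13a2 duct-like cells at 1.01. Basal duct-like cells, at 4.23, ranked ahead of ionocyte-like duct cells at 2.8. Within mucous acinar-like cells, those with under 1% Dcpp had a Wfdc2 level of 2.05 (1.66 to 2.49), near that of Slc13a2 duct-like cells, and those with at least 10% Dcpp had 0.379. Fewer cells carried it in the former, since a Wfdc2 UMI was in 16.8% of those with under 1% Dcpp and in 45.6% of Slc13a2 duct-like cells.

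In the other groups the Wfdc2 level was 2.50 (2.01 to 3.07) in myoepithelial-like, 1.41 (1.14 to 1.73) in fibroblast-like, 0.996 (0.798 to 1.23) in endothelial-like and 0.890 (0.764 to 1.03) in mucous acinar-like cells. It fell to 0.347 (0.202 to 0.556) in C1q-negative antigen-presenting-like, 0.245 (0.184 to 0.319) in macrophage-like, 0.229 (0.0742 to 0.533) in T cell-like and 0.134 (0.0913 to 0.189) in NK and ILC1-like cells. The bottom of the order was 0.113 (0.0948 to 0.133) in Dcpp-rich and 0.0346 (0.0301 to 0.0395) in serous acinar-like cells. This bottom too holds per 10000 UMIs only: Dcpp-rich and serous acinar-like cells had 0.266 and 0.0974 Wfdc2 UMIs per cell, above the 0.0281 of NK and ILC1-like cells, the lowest. For Wfdc2, 6 of 13 pairs of neighbours did not differ beyond the interval of their ratio: the Slc13a2 duct with myoepithelial-like cells, endothelial-like with mucous acinar-like cells, and the 4 successive pairs from C1q-negative antigen-presenting-like down to Dcpp-rich acinar-like cells. Few cells carried the Wfdc2 of some of these groups: 14 of 262 fibroblast-like cells held 92.5% of it, 15 of 286 endothelial-like cells 82.8% and 13 of 251 mucous acinar-like cells 70.6%. The 3 leading duct groups were each distinct from their neighbours.

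A Wfdc2 UMI was found in 93.9% of kallikrein-rich duct-like cells (median depth 3490.5 UMIs), 84.2% of ionocyte-like duct cells and 79.4% of basal duct-like cells. The share was 2.55% in NK and ILC1-like cells (median 1872), 15.5% in Dcpp-rich (median 24325.5) and 8.30% in serous acinar-like cells (median 25172). With every cell thinned to 1000 UMIs, the kallikrein-rich share of Wfdc2 was 71.1%, the ionocyte-like share 58.2%, and that of NK and ILC1-like cells 1.14%. Both kallikrein-rich clusters had the gene, at levels of 15.6 and 12.9.

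Relative to kallikrein RNA (Klk1, Klk1b22 and Klk1b5 summed), Wfdc2 differed between the duct groups. It was 10.6 (10.3 to 10.9) UMIs per 1000 kallikrein UMIs in kallikrein-rich duct-like cells. In NK and ILC1-like cells the ratio was 13.1 (8.94 to 18.5), in T cell-like cells 19.6 (6.31 to 46.4) and in C1q-negative antigen-presenting-like cells 10.9 (6.32 to 17.5), with intervals that included 10.6. Ionocyte-like duct cells had 93.6 (90.1 to 97.2), Slc13a2 duct-like cells 83.8 (76.5 to 91.7) and basal duct-like cells 138 (127 to 149). Myoepithelial-like cells, at 112 (89.4 to 140.0), were as high for Wfdc2, and fibroblast-like, Dcpp-rich and mucous acinar-like cells had 27.8, 23.5 and 23.2, with intervals above 10.6. The Wfdc2 ratio of these 3 duct groups and the myoepithelial-like cells was therefore far above that of kallikrein-rich cells, while in the 3 immune groups a difference from it was not detectable at this depth. Macrophage-like cells at 17.3 (12.95 to 22.6) and serous acinar-like cells at 13.8 (12.02 to 15.8) were slightly above 10.6, as were endothelial-like cells at 16.3 (13.01 to 20.1), and a mix of duct sources was not tested.

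Against the serous transcripts Mucl2, Pip and Scgb2b27 summed, lymphoid-like cells had 35.3 Bpifa2, 16.2 Pglyrp1 and 1.20 Wfdc2 UMIs per 10000 of these serous UMIs. Serous acinar-like cells make these transcripts themselves, so the ratio says nothing of them. Kallikrein-rich duct-like cells had 231 Wfdc2 UMIs on that scale and ionocyte-like duct cells 132.

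Against lymphoid-like cells, Bpifa2 was 59.0-fold higher (55.6 to 62.7) in Dcpp-rich acinar-like cells, a log2 ratio of 5.88. Pglyrp1 was 11.8-fold higher there (10.8 to 12.97), a log2 ratio of 3.57, with a reference that itself holds Pglyrp1 above the Dcpp-rich ratio. Both of these 2 members passed the 4-fold limit used for a call, as did 2.43% of all 9202 genes with at least 20 UMIs in the 2 groups together, and nothing is read from this since the genes were chosen on these levels. Wfdc2 was 99.95-fold higher (72.4 to 142) in kallikrein-rich duct-like cells, a log2 ratio of 6.64, where 19.6% of 10667 genes passed the same limit upward. The median log2 ratio of all genes was −2.62 in the Dcpp-rich comparison and 0.50 in the kallikrein comparison, a shift of scale to set beside each ratio.

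Counted as UMIs per cell in place of UMIs per 10000, the log2 ratio to lymphoid-like cells was 9.36 for Bpifa2, 7.05 for Pglyrp1 and 7.54 for Wfdc2, and the ratio to the next group was 2.55 for Bpifa2 and 2.19 for Pglyrp1. Against macrophage-like cells in place of lymphoid-like ones, the log2 ratio of Pglyrp1 was 5.87 and that of Wfdc2 5.85.

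Most relatives of each member had 0 UMIs or had their highest level in another group than the member. Of 16 BPI fold genes in the matrix, 5 had a UMI and only Bpifa2 could be called, as higher in Dcpp-rich acinar-like cells. The next most abundant were Pltp, a phospholipid transfer protein, with 794 UMIs and its highest level in endothelial-like cells (3.77), and Lbp, which binds lipopolysaccharide, with 174 UMIs and its highest level in fibroblast-like cells (0.456). Bpifa2 thus had the most UMIs of its family in these cells, a count that also depends on the priming of each gene.

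Of 4 peptidoglycan recognition genes, Pglyrp3 and Pglyrp4 had 0 UMIs. Pglyrp2, an enzyme that cuts peptidoglycan, had 136 UMIs with its highest level in NK and ILC1-like cells (0.434). With its 0 UMIs in Dcpp-rich acinar-like cells set at 3 over the group, it was 176-fold lower there. A call of lower is common in that comparison, with 66.1% of all 9202 genes. The list's median log2 ratio was −1.94, from Pglyrp1 up and Pglyrp2 down. In the kallikrein comparison Pglyrp1 and Pglyrp2 were both called lower than in lymphoid-like cells, as were 8.4% of all 10667 genes. This reference holds Pglyrp1 above the Dcpp-rich ratio, and against macrophage-like cells the Pglyrp1 fold was 0.721, which is no call. The BPI fold list had 0 of 1 called.

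Of 19 WAP genes, 11 had a UMI and 4 could be called in either comparison. In kallikrein-rich duct-like cells Wfdc2 was higher and Slpi, a protease inhibitor, lower, with a list median of −0.08, where 19.6% of all genes were called higher and 8.4% lower. The Slpi call rests on the T cell-like part of the reference, with 82 of its 92 UMIs, and was lost against NK and ILC1-like cells alone. In Dcpp-rich acinar-like cells Wfdc18 was 24.2-fold higher and Slpi, with its 0 UMIs set at 3, was 147-fold lower. Lower is the commoner direction there, the Slpi call rests on the same T cell-like cells, and the list median was −0.99. Of all genes, 2.43% were called higher and 66.1% lower in that comparison. Wfdc18 and Wfdc12 had 366013 and 313707 UMIs in the matrix, and their highest levels were 237 in Slc13a2 duct-like cells and 144 in mucous acinar-like cells. The 3 most abundant WAP genes thus each had another leading group, with Wfdc2 the one led by kallikrein-rich duct-like cells.

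Among 29 other salivary defence genes, 25 had a UMI. In the Dcpp-rich comparison 15 could be called, with a median log2 ratio of 0.19: Dcpp1, Dcpp2 and Dcpp3 were 67.3-fold, 63.1-fold and 67.5-fold higher, near the fold of Bpifa2, and Pigr, the carrier of antibody into saliva, was 9.22-fold higher. The level of Pigr was highest in mucous acinar-like cells at 5.99, with Dcpp-rich acinar-like cells next at 1.90. Of all genes, 2.43% were called higher in that comparison. Nothing is read from the calls of Dcpp1, Dcpp2 and Dcpp3, since these markers named the group. Prol1, Cst3, Jchain and Car6, 4 of the 15, were lower there, against 66.1% of all genes. All 1289 lymphoid-like UMIs of Jchain were in the 97 T cell-like cells, so both of its calls rest on them. In the kallikrein comparison 14 could be called, with a median of −0.80: Crisp3 was 124-fold higher (105 to 147), an interval that overlaps that of Wfdc2, Lcn2 was at least 10.1-fold higher, and Jchain was lower, in a comparison where 19.6% of all genes were called higher and 8.4% lower.

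The genes most like each member were found by Pearson's r of log2(level + 0.1) over the 23 clusters of at least 50 cells, among 6459 genes with at least 500 UMIs. The clusters share a library and its free RNA, so r is only a description. For Bpifa2 they were Dcpp3 (0.989), Dcpp2 (0.987), Dcpp1 (0.980), Mup4 (0.940) and Mup6 (0.939). Pglyrp1 was most like Dcpp3 (0.919), Dcpp2 (0.915), Bpifa2 (0.914), Dcpp1 (0.900) and Mup4 (0.887). For Wfdc2 they included Elovl7 (0.976), Ppargc1a (0.964), Tspan8 (0.960) and Tfcp2l1 (0.959). The r of Wfdc2 was −0.237 with Bpifa2 and −0.290 with Pglyrp1, a weak relation over these clusters.

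The promoters of Bpifa2 and Pglyrp1 are shown because these genes share their leading cells. They are from RefSeq (GRCm38.p6), on the plus strand, without bases in annotated exons: 239 bases at chr2:154008026-154008264 and 240 bases at chr7:18884440-18884679. Searched on both strands were the TATA box letters TATAA, the E-box CAGCTG and the ETS core with a flank, GGAAG. The first was shortened from TATAAA after a search with that had found none in these genes. Capitals mark TATAA in Bpifa2, and GGAAG or its reverse complement CTTCC in Pglyrp1.
Bpifa2: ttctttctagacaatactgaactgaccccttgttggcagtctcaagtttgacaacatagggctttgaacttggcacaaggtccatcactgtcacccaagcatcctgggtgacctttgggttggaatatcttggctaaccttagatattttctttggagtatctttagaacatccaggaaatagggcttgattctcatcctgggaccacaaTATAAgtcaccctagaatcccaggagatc
Pglyrp1: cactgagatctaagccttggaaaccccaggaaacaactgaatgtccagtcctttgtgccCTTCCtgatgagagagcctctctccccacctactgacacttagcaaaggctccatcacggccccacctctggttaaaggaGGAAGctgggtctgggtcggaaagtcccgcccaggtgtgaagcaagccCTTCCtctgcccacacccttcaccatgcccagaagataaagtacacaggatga
TATAA is held by 22.8% of 32851 promoter windows of 250 bases, CAGCTG by 13% and GGAAG by 64.1%. Positions count back from the RefSeq starts, 154008276 for Bpifa2 and 18884690 for Pglyrp1, the latter near the start of its principal transcript (18884680) and not of the whole annotated gene. Bpifa2 had TATAA 40 bases before its start and neither other motif, Pglyrp1 had GGAAG 191, 111 and 63 bases before its start, and CAGCTG was in none of the runs searched for the 3 genes. The promoter of Wfdc2 is not shown, since it does not share the leading cells and annotated exons leave a run of only 104 bases, in which GGAAG lay 237 and 193 bases before the RefSeq start of Wfdc2. Its 250 bases had 14 CpG and 64.8% GC, against 1 and 44% for Bpifa2 and 3 and 55.6% for Pglyrp1, where the median of all windows was 6 and 52.4%.

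Among the unnamed groups, a shallow cluster led by Dcpp2, with 2753 cells at a median of 2075 UMIs, had a Bpifa2 level of 131 (130.0 to 132) and a Pglyrp1 level of 10.8 (10.6 to 11). It held 23.4% of the UMIs of Bpifa2 and 20.6% of those of Pglyrp1. Over all 9 unnamed groups the level of Bpifa2 ran from 1.65 to 131, that of Pglyrp1 from 0.386 to 10.8, and that of Wfdc2 from 0.459 to 6.70, the last in a cluster with NK and duct markers. A cluster led by Smgc had 1.85 (1.45 to 2.33) Pglyrp1 UMIs per 100 Dcpp UMIs in its cells with at most 50 Dcpp UMIs, against 0.585 over the whole cluster.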

How the data were processed

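The authors deposited 1 matrix of raw UMI counts, unit count, made with Cell Ranger 6.0.1 on mm10, and the processing notes of the submitters name Seurat 4.1.1. Further data of the study are not used here. Every barcode was kept. Seurat 5.3.0 in R 4.3.3 (Matrix 1.6.5) was used for LogNormalize with scale factor 10000, 2000 variable genes by vst less the 3 members (1997), 20 principal components and Louvain clusters at resolution 0.5, which gave 24. Clusters 6 and 12 were divided by the clusters at resolution 0.8, giving 26.

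A group was named with at least 3 markers of a list, each above its level elsewhere and found in at least 25% of cells, and at least 500 genes in the median cell. The division and the limit of 500 were chosen after seeing the data. No doublet caller was used here. Some clusters with markers of several lists stayed unnamed by judgement, while named groups also met other lists, such as mucous acinar-like cells (5 Dcpp-rich and 5 luminal duct markers), Dcpp-rich cells (3 mucous), 1 kallikrein-rich cluster (4 ionocyte-like) and myoepithelial-like cells (several duct lists).

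Levels carry exact Poisson, ratios exact conditional binomial and shares Clopper-Pearson 95% intervals. A call is a 4-fold ratio with at least 20 UMIs in 2 groups, and a count of 0 over a group stands at 3, a choice made after seeing the data. Since 3′ UMI counts depend on priming, levels were compared between groups for 1 gene, not between genes. Genes named are the 3 members, the genes of the 4 defence lists that were called or among the 3 most abundant of their list, markers, and genes among the 5 most similar to each member. Beyond these, Bpifa3 and Bpifa6 are named as neighbours of Bpifa2, and Pglyrp4 to complete its list. Members and lists were chosen with earlier results of these data known. Positions are from GENCODE M21. The rest was done in Python 3.11.15 (scipy 1.17.1, numpy 2.4.6, matplotlib 3.10.9 and pandas 2.3.3).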

Additional observations from a re-analysis of the deposited data

How the results depend on the processing

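No alternative turned any of the 6 log2 ratios around. Of 68 values under an alternative, 35 moved by less than the interval of counting error and 33 moved by more, and the cause was not tested. The 2 ratios of a gene below are to the next group and then to lymphoid-like cells, where both moved. Counted as UMIs per cell, they were 2.55 and 9.36 for Bpifa2, 2.19 and 7.05 for Pglyrp1, and 0.40 (next group basal duct-like) and 7.54 for Wfdc2. With the 10 most abundant transcripts left out they were 2.39 and 8.39 for Bpifa2 and 2.04 and 6.08 for Pglyrp1. As a mean over cells, the ratio to the next group was 2.58 for Bpifa2 and 1.42 for Pglyrp1. With 10 principal components the ratio to the next group was 0.67 for Bpifa2, 0.27 for Pglyrp1 and 0.41 for Wfdc2, and that of Bpifa2 to lymphoid-like cells 6.03. With 30 components it was 1.64, 1.26 and 0.37. With the members kept among the variable genes it was 1.66 for Bpifa2 and 1.28 for Pglyrp1, and with a filter on cells 1.66 and 1.27. These runs of the clustering named 11 to 13 groups in place of 14, so the division into groups also differed. Resolution 0.3 gave 0.56 and 7.20 for Wfdc2, and no value for Bpifa2 and Pglyrp1, since no cluster took the name Dcpp-rich acinar-like. The following were chosen after seeing the data. With the shallow Dcpp2-led cluster joined to the Dcpp-rich group, the ratios were 0.66 and 5.58 for Bpifa2 and 0.27 and 3.22 for Pglyrp1. With clusters 6 and 12 left whole, the ratio to the next group was 1.68 for Bpifa2 and 1.29 for Pglyrp1. With macrophage-like cells as the reference, Pglyrp1 was at 5.87 and Wfdc2 at 5.85. Taking free RNA away was not run for the ratios to lymphoid-like cells, which define it. Depth limits the smaller groups most: Pglyrp1 had 16 UMIs in myoepithelial-like cells. With 1 sample, intervals leave out differences between animals and glands.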
